A study of Homo sapiens with 9 samples.

Results

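The genes described here are 10 cytosolic and mitochondrial heat shock genes, of 17958 genes measured in human colorectal cancer cells that had received a klotho vector or an empty one. They were chosen by name, as a set of chaperone genes whose products work outside the endoplasmic reticulum (ER), and for each the brightest row of the deposited table stood for the gene. All 10 had exactly 1 row naming them alone. HCT 116, a colorectal cancer cell line, was transfected with KL-FL, a vector for mouse full-length klotho, with KL1, a vector for the KL1 subdomain of mouse klotho, or with pcDNA3, the control vector. RNA was taken 24 hours later, and each group had 3 arrays, 9 in all. The transfection reagent, JetPEI or polyethylenimine, is not given per sample. Nor is it stated whether replicates were separate cultures, so p-values here reflect a spread between arrays that may be technical only. All arrays came from transfected cells of 1 line, and the expressed klotho was mouse protein in human cells.

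Heat shock proteins are chaperones that keep other proteins folded, and most belong to families named for their size. In the cytosol, HSP70 proteins bind exposed stretches of unfolded protein in a cycle driven by ATP, J proteins deliver the clients, exchange factors release them, and HSP90 completes the folding of kinases and hormone receptors. Misfolded protein in the cytosol releases the transcription factor HSF1, which binds heat shock elements in the promoters of these genes. Misfolded protein inside the ER starts a separate program, the unfolded protein response, which raises ER chaperones such as HSPA5 and HSP90B1 through ER stress elements. The series is titled for the unfolded protein response, and the heat shock genes are the same kind of protein in the other compartments.

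The elements named above were searched in the promoters. All 10 genes had promoter sequence in RefSeq (build GRCh38.p14), in 16 windows running from 250 bases before to 50 after an annotated start. A heat shock element was searched as GAA, TTC and GAA with 2 free bases between them, or the reverse complement TTC, GAA and TTC, and matches could overlap. It was found for 4 of the 10 genes, HSPA8, HSP90AA1, HSP90AB1 and HSPD1, in 4 of the 16 windows, while 0.49% of all 35116 promoter windows held it. An ER stress element, CCAAT and CCACG with 9 free bases between them on either strand, was found for 0 of the 10. Among 16 ER genes used below as a comparison it was found for 6, HSPA5, HSP90B1, PDIA6, CALR, CANX and CRELD2, and a heat shock element for 0. The ER stress element was in 8 of the 22 windows of these 16 genes, against 0.0769% of all windows. The CANX windows that held it overlap and share the same site. A match describes the letters in the window and is not evidence of binding. Only exact matches were counted, so a window without a match may still hold a form of the element with a changed letter. The windows of the 4 genes with a heat shock element are shown first, and then those of HSPA5 and HSP90B1, the ER members of the HSP70 and HSP90 families, each read along its gene's strand. Capitals mark the fixed letters of each match.
HSPA8, chr11:123062087-123062386, - strand: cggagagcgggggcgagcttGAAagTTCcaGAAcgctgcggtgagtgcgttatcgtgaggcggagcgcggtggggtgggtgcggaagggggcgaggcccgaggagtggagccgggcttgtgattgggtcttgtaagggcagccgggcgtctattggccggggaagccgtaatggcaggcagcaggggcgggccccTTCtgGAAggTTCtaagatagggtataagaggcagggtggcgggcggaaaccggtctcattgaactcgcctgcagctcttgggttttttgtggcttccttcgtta
HSP90AA1, chr14:102086995-102087294, - strand: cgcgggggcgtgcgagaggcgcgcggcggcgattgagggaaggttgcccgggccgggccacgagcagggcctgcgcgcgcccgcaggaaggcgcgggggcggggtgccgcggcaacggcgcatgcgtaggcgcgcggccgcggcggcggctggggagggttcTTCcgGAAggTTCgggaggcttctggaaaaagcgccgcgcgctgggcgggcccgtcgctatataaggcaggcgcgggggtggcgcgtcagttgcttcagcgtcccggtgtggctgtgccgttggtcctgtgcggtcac
HSP90AB1, chr6:44247693-44247992, + strand: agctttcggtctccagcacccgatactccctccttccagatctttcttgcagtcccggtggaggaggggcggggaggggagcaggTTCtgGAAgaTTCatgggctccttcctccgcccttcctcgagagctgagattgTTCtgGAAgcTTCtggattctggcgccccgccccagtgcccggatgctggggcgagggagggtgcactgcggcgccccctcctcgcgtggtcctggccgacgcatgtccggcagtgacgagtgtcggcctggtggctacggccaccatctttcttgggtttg
HSPD1, chr2:197499791-197500090, - strand: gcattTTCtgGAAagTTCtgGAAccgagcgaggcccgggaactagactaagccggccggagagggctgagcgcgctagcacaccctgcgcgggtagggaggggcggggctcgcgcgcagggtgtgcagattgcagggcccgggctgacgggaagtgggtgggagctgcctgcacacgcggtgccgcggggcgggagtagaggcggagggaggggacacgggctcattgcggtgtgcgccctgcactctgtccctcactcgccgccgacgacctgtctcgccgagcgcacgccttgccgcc
HSPA5, chr9:125241294-125241593, - strand: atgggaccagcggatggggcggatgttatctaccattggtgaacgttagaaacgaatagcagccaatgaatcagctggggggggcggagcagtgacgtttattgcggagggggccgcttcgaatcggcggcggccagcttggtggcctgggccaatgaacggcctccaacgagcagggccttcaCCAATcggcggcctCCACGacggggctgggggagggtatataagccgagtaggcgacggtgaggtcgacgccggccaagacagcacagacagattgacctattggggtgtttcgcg
HSP90B1, chr12:103930160-103930459, + strand: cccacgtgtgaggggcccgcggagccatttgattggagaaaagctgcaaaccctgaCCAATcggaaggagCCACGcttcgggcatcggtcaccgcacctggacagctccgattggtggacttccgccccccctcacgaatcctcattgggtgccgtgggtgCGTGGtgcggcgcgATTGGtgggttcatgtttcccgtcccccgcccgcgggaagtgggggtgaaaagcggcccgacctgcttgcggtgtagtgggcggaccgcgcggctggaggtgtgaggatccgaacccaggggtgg
In the HSPA8 window the matches began 230 and 55 bases before the start, and in that of HSP90AA1 the match began 88 bases before it. The 2 matches of HSPD1 overlapped, beginning 245 and 240 bases before its start. HSP90AA1, HSP90AB1 and HSPD1 each have at least 1 other annotated start whose window held no match. The ER stress element of HSPA5 began 66 bases before its start, and those of HSP90B1 began 194 and 89 bases before.

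The heat shock genes read near the top of the scale on all arrays. Over 9 arrays, 9 of the 10 lay at or above percentile 95.2 of all genes by mean log2 value (the log base is inferred from the range of the values), and BAG3 lay at percentile 81.5. Of the 10, 0 passed the test in any of the 3 comparisons. The test was limma over all 17958 genes with Benjamini-Hochberg adjustment and a threshold of 0.05, which called 0.00557% of genes between KL-FL and control, 0.00557% between KL1 and control and 0% between KL-FL and KL1. The share called is so small that a count of 0 among 10 genes is near the background. At an unadjusted p under 0.05 the members numbered 0 for KL-FL against control, where 7.16% of all genes passed, 1 for KL1 against control, where 5.10% passed, and 0 between KL-FL and KL1, where 5.05% passed. The differences ran from -0.060 to 0.069 on the log2 scale for KL-FL against control and from -0.12 to 0.060 for KL1 against control. Their 95% intervals, from the same model and not adjusted for the number of genes, lay between -0.23 and 0.18 for KL-FL, or 0.850-fold to 1.13-fold, and between -0.24 and 0.22 for KL1, or 0.846-fold to 1.16-fold. In bulk RNA, fewer cells expressing a gene and less RNA per cell cannot be told apart.

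**Figure D1:**
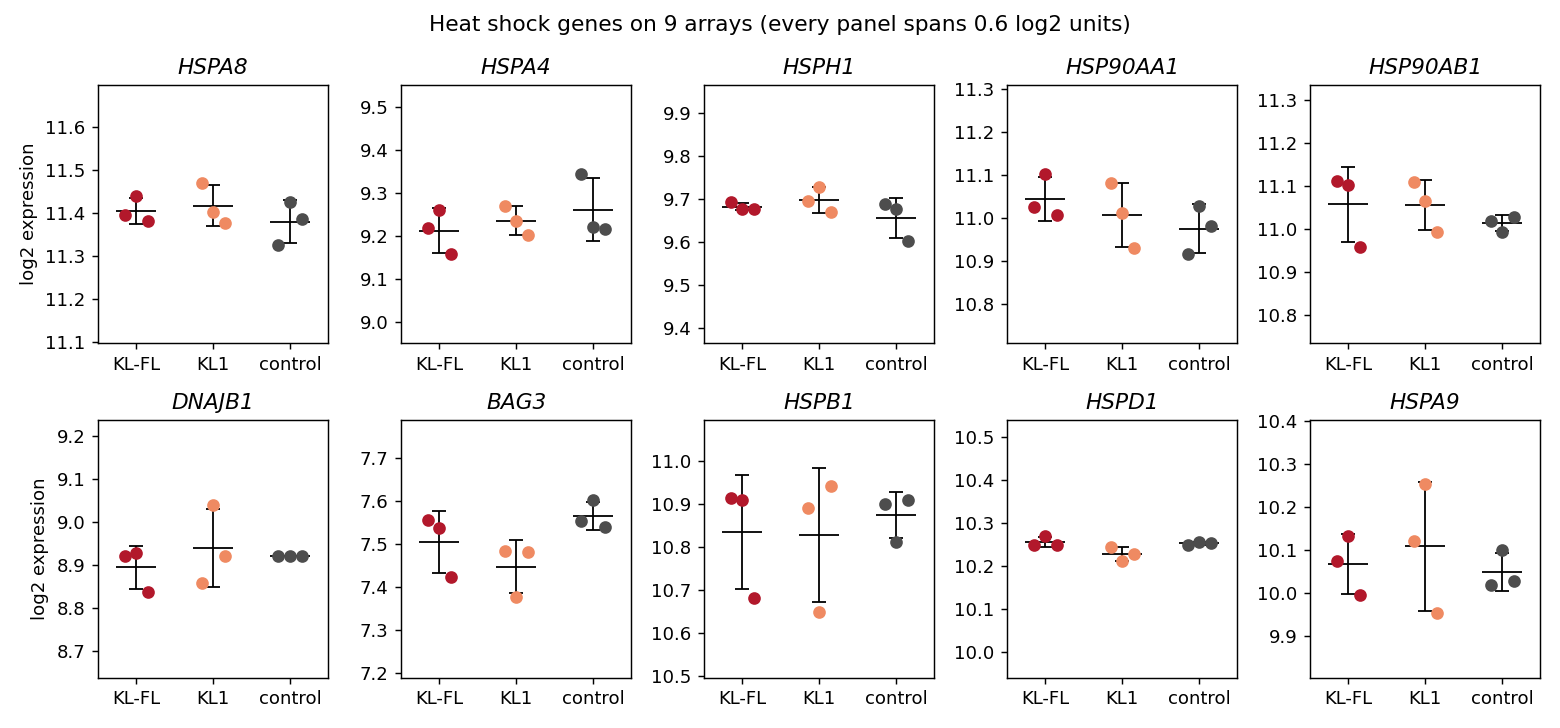
Log2 expression of the 10 heat shock genes on each array (points), with group mean and SD (bars), for KL-FL, KL1 and control; every panel spans the same height. All groups of a gene overlap except BAG3 and HSPD1 in KL1, which sit below control, and HSPD1 in KL1, which sits below KL-FL.

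HSPA8 (probe set 7952325) encodes the constitutive cytosolic HSP70, which folds new proteins and strips clathrin from vesicles. Its log2 values were 11.39, 11.44 and 11.38 with KL-FL, 11.47, 11.40 and 11.38 with KL1, and 11.32, 11.43 and 11.39 in control. The groups overlapped, and the lowest array was control replicate 1. HSPA8 differed from control by 0.026 (SE 0.038, adjusted p = 0.872 in limma) with KL-FL and by 0.037 (SE 0.038, adjusted p = 0.933) with KL1. The interval for KL1 ran from -0.050 to 0.12. The ER HSP70 gene HSPA5, listed with earlier results of these data known, differed by 0.28 with KL1 (interval 0.15 to 0.42, adjusted p = 0.821 in limma). With KL-FL the HSPA5 difference was 0.23 (interval 0.092 to 0.36, adjusted p = 0.583 in limma).

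HSPA4 (8108015) and HSPH1 (7970864) encode HSP110 proteins, relatives of HSP70 that act as its nucleotide exchange factors. HSPA4 had 9.22, 9.26 and 9.16 with KL-FL, 9.27, 9.23 and 9.20 with KL1, and 9.35, 9.22 and 9.22 in control. Control replicate 1 was the highest of the 9 arrays, and the groups overlapped. HSPA4 differed by -0.048 (SE 0.045, adjusted p = 0.785 in limma) with KL-FL and by -0.025 (SE 0.045, adjusted p = 0.961) with KL1. HSPH1 had 9.69, 9.68 and 9.68 with KL-FL, 9.69, 9.73 and 9.67 with KL1, and 9.69, 9.68 and 9.60 in control. Here control replicate 3 was the low array and the other 8 lay close together. The differences for HSPH1 were 0.027 with KL-FL and 0.042 with KL1 (SE 0.033 each, adjusted p = 0.833 and 0.929).

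The cytosolic HSP90 pair was measured by separate rows. HSP90AA1 (7981335), the stress-inducible form, had 11.02, 11.10 and 11.01 with KL-FL, 11.08, 11.01 and 10.93 with KL1, and 10.92, 11.03 and 10.98 in control. Its difference of 0.069 with KL-FL (SE 0.048, adjusted p = 0.749 in limma) was the highest of the 10 in that comparison, and the groups overlapped. With KL1 it differed by 0.032 (SE 0.048, adjusted p = 0.957), and without KL1 replicate 1 by -0.0048. HSP90AB1 (8119993), the constitutive form, had 11.11, 11.10 and 10.96 with KL-FL, 11.11, 11.06 and 10.99 with KL1, and 11.02, 10.99 and 11.03 in control. In each klotho group 2 of 3 arrays lay above every control and replicate 3 lay within or below them. The differences were 0.044 and 0.042 for KL-FL and KL1 (SE 0.048 each, adjusted p = 0.813 and 0.935), and without KL-FL replicate 3 the KL-FL difference was 0.093.

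DNAJB1, BAG3 and HSPB1 all had a mean below control with KL-FL, and with KL1 DNAJB1 lay above control and the other two below, with 0 of 3 past the test in either comparison. DNAJB1 (8034837), the J protein that hands clients to cytosolic HSP70 and is itself strongly induced by heat, had 8.92, 8.93 and 8.84 with KL-FL, 8.86, 9.04 and 8.92 with KL1, and 8.92 on all 3 controls. The deposited value, 8.91979, was identical to the last digit on 5 arrays: the 3 controls, KL-FL replicate 1 and KL1 replicate 3. The SD of the control group was therefore 0, and a shared value on 5 or more arrays was found for 10.5% of all genes. Such ties were rarer among bright genes, at 25 of the 790 with a mean of at least 9, and DNAJB1 averaged 8.92. DNAJB1 differed by -0.025 with KL-FL (SE 0.048, adjusted p = 0.903 in limma) and by 0.019 with KL1 (SE 0.048, adjusted p = 0.974), and both signs turned without 1 array each, KL-FL replicate 3 (0.0034) and KL1 replicate 2 (-0.031).

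BAG3 (7930921), an exchange factor that directs HSP70 clients to selective autophagy and is a known target of HSF1, was the member that stood lowest against control. It had 7.56, 7.54 and 7.42 with KL-FL, 7.48, 7.38 and 7.48 with KL1, and 7.55, 7.60 and 7.54 in control. All 3 KL1 arrays lay below all 3 controls, whereas KL-FL replicate 1 lay inside the control range. The mean was 7.45 ± 0.062 with KL1 and 7.57 ± 0.032 in control (SD, n = 3 each), a difference of -0.12 (SE 0.046) with an interval from -0.22 to -0.014, or 0.921-fold. Over all genes it did not pass in limma (adjusted p = 0.927, unadjusted p = 0.0307). Lower values without overlap were found for 2 of the 10 members, BAG3 and HSPD1, and for 4.34% of all genes. With KL-FL the BAG3 difference was -0.060 (SE 0.046, adjusted p = 0.757), or -0.019 without KL-FL replicate 3, and between KL-FL and KL1 it was 0.058 (SE 0.046, adjusted p = 0.856).

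HSPB1 (8133721), the small heat shock protein HSP27 that holds unfolded proteins without ATP, varied most between replicates. It had 10.91, 10.91 and 10.68 with KL-FL, 10.89, 10.65 and 10.94 with KL1, and 10.90, 10.81 and 10.91 in control. KL-FL replicate 3 and KL1 replicate 2 lay below the other 7 arrays, and these are the arrays with the lowest correlations to the rest over all genes. HSPB1 differed from control by -0.040 with KL-FL and by -0.047 with KL1 (SE 0.086 each, adjusted p = 0.920 and 0.961 in limma). Without those 2 arrays the differences were 0.037 and 0.042, so the sign of HSPB1 rested on them.

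The mitochondrial chaperones, which fold proteins imported into the matrix, also overlapped with control in most cases. HSPD1 (8058052), the HSP60 chaperonin, was the steadiest member, with a range of 0.056 over the 9 arrays. It had 10.25, 10.27 and 10.25 with KL-FL, 10.24, 10.21 and 10.23 with KL1, and 10.25, 10.26 and 10.25 in control. The KL1 arrays lay below all 6 others, by small amounts. HSPD1 differed from control by 0.0031 with KL-FL and by -0.024 with KL1 (SE 0.026 each, adjusted p = 0.982 and 0.935 in limma). HSPA9 (8114455), the matrix HSP70 that pulls precursors through the inner membrane, had 10.07, 10.13 and 9.99 with KL-FL, 10.12, 10.25 and 9.95 with KL1, and 10.02, 10.10 and 10.03 in control. The KL1 group held both its highest and its lowest array. HSPA9 differed by 0.018 with KL-FL and by 0.060 with KL1 (SE 0.071 each, adjusted p = 0.959 and 0.936), and without KL1 replicate 2 the KL1 difference became -0.012.

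Full-length klotho and its subdomain were also set against each other. The 10 differences of KL-FL minus KL1 ran from -0.044 for DNAJB1 to 0.058 for BAG3, with 5 positive and 5 negative and adjusted p from 0.856 to 0.997 in limma. Their intervals lay between -0.20 and 0.20. HSPD1 was higher in KL-FL than in KL1 without overlap, by 0.027 (SE 0.026), where 4.67% of all genes were higher without overlap.

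Across the 10 genes the median difference was 0.010 with KL-FL and 0.025 with KL1, against 0.0099 and 0.0026 over all genes. In each comparison with control 6 of the 10 were above 0, where 57.2% of all genes were above 0 with KL-FL and 52.0% with KL1. With arrays centred on their medians, which put the median of all genes at -0.024 for KL-FL, 2 of the 10 were above 0 there and 6 with KL1. These comparisons share the control arrays. Groups did not overlap for 0 of 10 members with KL-FL and 2 of 10 with KL1, against 10.4% and 9.47% of all genes. KL-FL replicate 3 and KL1 replicate 2 had median correlations of 0.997 and 0.998 with the other arrays, against 0.999 for the remaining 7. On KL-FL replicate 3, 9 of the 10 members lay below their 9-array mean, with a median deviation of -0.079, while the median of all genes there deviated by -0.0086. Without these 2 arrays 0 members passed in any comparison.

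**Figure D2:**
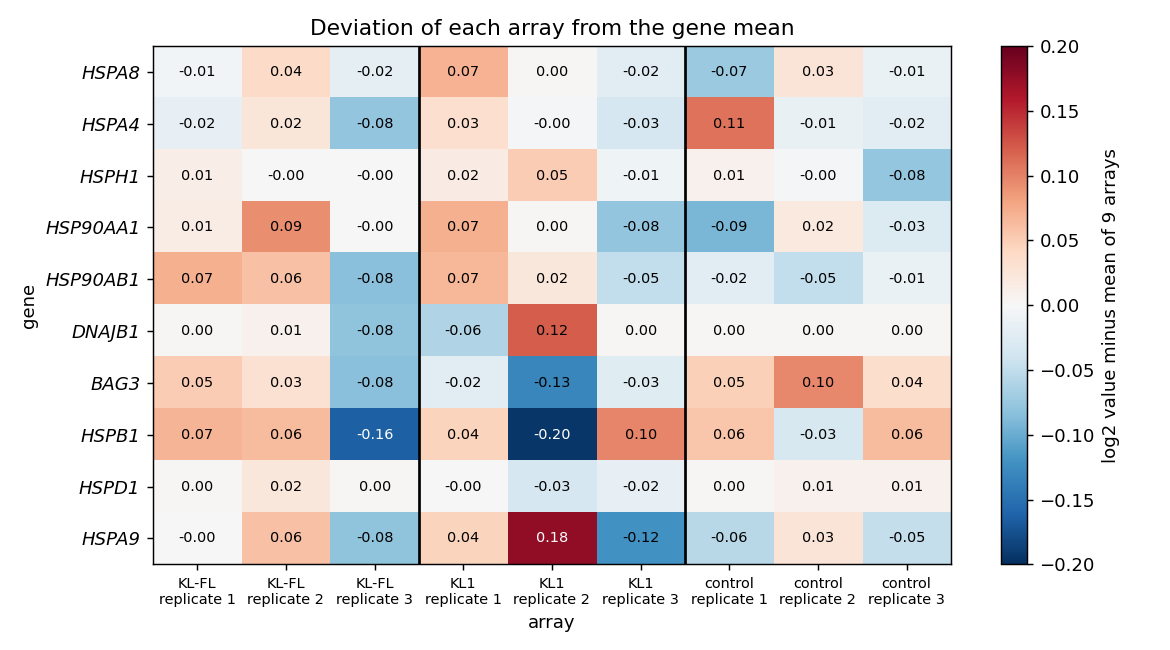
Log2 value of each heat shock gene on each array minus that gene's mean over the 9 arrays, with columns ordered as KL-FL, KL1 and control and vertical lines between groups. The strongest cells belong to single arrays, HSPB1 at -0.16 on KL-FL replicate 3 and at -0.20 on KL1 replicate 2, where HSPA9 stood at 0.18.

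The members varied together only in part. Of the 45 pairs, 29 had a positive Pearson correlation over the 9 arrays, with a median of 0.19, and 2 were above 0.7. The closest pair was HSPA8 and HSP90AA1, at 0.894 (Spearman 0.950), and 0.964 after removing group means, so their shared variation lay within the groups. BAG3 and HSPD1 followed at 0.722 (Spearman 0.644). The lowest Pearson value was that of DNAJB1 and HSPD1, at -0.558, but their Spearman value was 0.037. By Spearman the lowest pair was HSPH1 and HSPD1, at -0.494 (Pearson -0.488). All these values share the same 9 arrays and are descriptions. Among 17858 genes outside the lists, the gene most like BAG3 was WBP11 (Pearson 0.967, Spearman 0.854), that most like HSP90AA1 was EPRS1 (0.967 and 0.921) and that most like HSPH1 was POFUT2 (0.974 and 0.898), each over 9 arrays. They are the highest of many, as Pearson values above 0.9 were found for 18 genes with BAG3, 21 with HSP90AA1 and 36 with HSPH1.

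Other genes of the cytosolic and mitochondrial chaperone systems gave 0 calls in limma in either comparison with control, of 49 measured in 7 lists. At an unadjusted p under 0.05 there was 1 in each comparison, STUB1 with KL-FL and PTGES3 with KL1, a smaller share than the 7.16% and 5.10% of all genes. Of the heat-inducible HSP70 genes and their relatives 6 were measured, 3 higher and 3 lower with either vector, with medians of 0.0023 for KL-FL and -0.0039 for KL1. HSPA1A, the main heat-induced HSP70, read 9.19, 9.15 and 9.00 with KL-FL, 9.09, 8.96 and 9.07 with KL1, and 9.16, 9.07 and 9.00 in control, so the groups overlapped. Its near-identical copy HSPA1B could contribute to that row. HSPA1L, dim at percentile 26.4 of all genes, and HSPA2 differed by -0.12 and -0.076 with KL-FL, and HSPA2 by -0.092 and HSPA1A by -0.033 with KL1 (adjusted p from 0.709 to 0.962 in limma). Of 8 cytosolic J proteins 3 were higher with KL-FL and 4 with KL1. DNAJB4 and DNAJA4 differed by 0.14 and 0.13 with KL-FL, and DNAJA2 and DNAJA1 by -0.079 and -0.037 with KL1.

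Of 10 measured co-chaperones of HSP70 and HSP90, 4 were higher and 6 lower with each vector. STUB1, the ubiquitin ligase that marks chaperone clients for the proteasome, differed by -0.20 (SE 0.086, adjusted p = 0.689 in limma) and HSPBP1 by -0.12 with KL-FL. Without KL-FL replicate 3 these were -0.11 and -0.065. PTGES3, the HSP90 co-chaperone p23, had 9.37, 9.19 and 9.32 with KL1 and 9.44, 9.41 and 9.41 in control, a difference of -0.13 (SE 0.046, adjusted p = 0.927), and without KL1 replicate 2 it was -0.077. PPID, a prolyl isomerase bound to HSP90, differed by 0.068 with KL1. Of 8 subunits of the cytosolic chaperonin 5 were higher with each vector, with CCT8 at 0.14 and CCT4 at -0.080 for KL-FL, and CCT8 at 0.11 and CCT7 at 0.046 for KL1. The CCT4 value was -0.021 without KL-FL replicate 3, -0.13 without KL-FL replicate 2 and -0.052 without control replicate 1. Among small heat shock genes HSPB8 differed by -0.099 with KL-FL and by -0.068 with KL1. CRYAB read only 2.82 to 2.94 over the 9 arrays, at percentile 7.17 of all genes and as low as the leukocyte markers below, so its differences are not given. Of 12 mitochondrial chaperones and proteases 8 were higher with KL-FL and 6 with KL1. HSPE1, the co-chaperonin of HSPD1, differed by 0.074 with KL-FL, GRPEL1 by 0.053 and 0.064 with KL-FL and KL1, and the unfoldase CLPX by 0.047 with KL1. HSF1 itself differed by 0.045 and -0.044, and its binding protein HSBP1 by -0.020 and -0.11. HSF2 and HSF4 were not analysed here.

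ER chaperones and their stress partners were read in the same RNA. This comparison list of 16 genes was drawn up with earlier results of these data known, so its direction is not independent evidence. With KL-FL 16 of 16 were higher than control, with a median of 0.20, and with KL1 16 of 16, with a median of 0.24. Of them 1, DDIT3, which encodes the ER stress factor CHOP, passed in limma, at 0.65 with KL-FL (adjusted p = 0.0348) and 0.78 with KL1 (adjusted p = 0.00687), calls that ended with the replicate block (adjusted p = 0.226 and 0.0611). The call with KL-FL also ended when limma was fitted to the 6 arrays compared alone (adjusted p = 0.472), without KL-FL replicate 3 and KL1 replicate 2 together (adjusted p = 0.0672), and without any single array other than KL-FL replicate 2 or 3, and that with KL1 without any single KL1 or control array. Groups did not overlap for 10 of 16 with KL-FL and 13 of 16 with KL1, all higher, where 7.13% and 5.13% of all genes were higher without overlap. When limma weighted the arrays, 10 of the 16 ER genes and 0 of the 10 heat shock genes passed with KL-FL, while 2.91% of all genes did. With KL1 the same fit called 2 of the 16 ER genes and 0 of the heat shock genes, and 0.0111% of all genes. In that fit KL-FL replicate 1 carried a weight of 6.76 and the other arrays at most 1.35. The lowest adjusted p of a heat shock gene there was 0.119, for HSP90AB1 at 0.093.

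**Figure D3:**
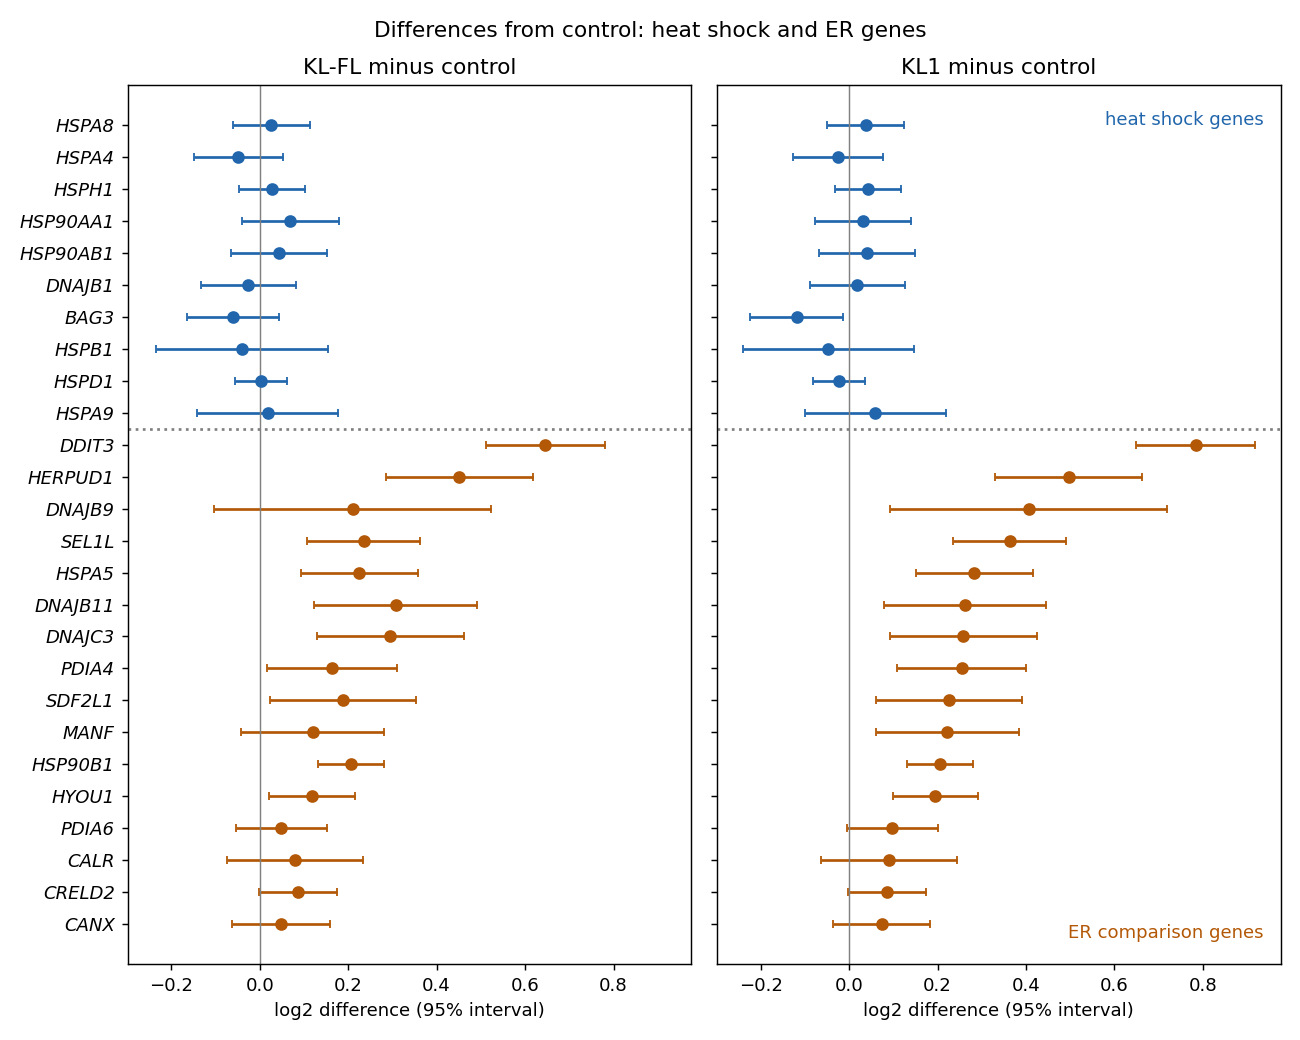
Log2 difference from control with its 95% interval for the 10 heat shock genes (above the dotted line) and the 16 ER comparison genes (below it), for KL-FL on the left and KL1 on the right. The heat shock genes lie between -0.12 and 0.069, and the ER genes between 0.049 and 0.78.

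ER and other genes of the same family were also set side by side, as the log2 ratio of the ER gene to its counterpart on each array. The pairs were chosen with earlier results of these data known, and they share genes and control arrays, so the direction of these ratios is a description. The ratio of HSPA5 to HSPA8 averaged -0.54 ± 0.084 with KL-FL, -0.49 ± 0.057 with KL1 and -0.74 ± 0.045 in control (SD, n = 3 each). The absolute ratio depends on the probes, so only its change between groups is meaningful, and that was 0.20 with KL-FL and 0.25 with KL1. For HSP90B1 to HSP90AA1 the changes were 0.14 and 0.17, for HSP90B1 to HSP90AB1 0.16 and 0.16, for HYOU1 to HSPH1 0.092 and 0.15, and for DNAJB9 to DNAJB1 0.24 and 0.39. HSPA5 to HSPA9 changed by 0.21 and 0.22. For that pair KL1 replicate 2, where HSPA9 was high, read 0.59 against 0.62, 0.57 and 0.58 in control, inside the control range. DNAJB9 to DNAJB1 read -3.319, -3.064 and -3.508 with KL1, highest on replicate 2. The lowest of these lay just above the highest control, -3.517. In 9 of the 12 changes the klotho arrays lay above every control, where the exact permutation test, two-sided, gave p = 0.10, the smallest value this test allows with 3 arrays against 3, and the other 3 had p = 0.20 (0.13 and 0.20 after adjustment over the 12). The test could therefore not pass 0.05, and a difference between the compartments was not shown by it.

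**Figure D4:**
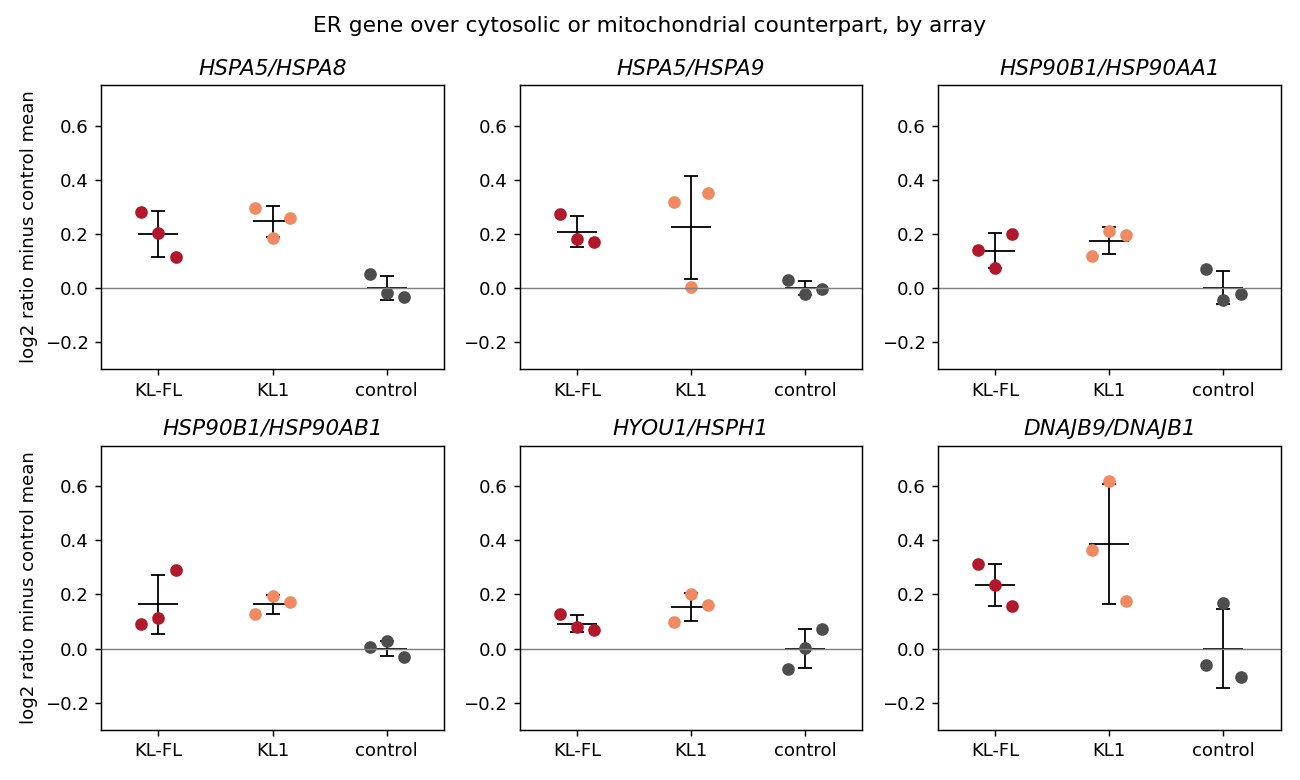
Log2 ratio of an ER gene to its cytosolic or mitochondrial counterpart on each array, minus the control mean, for 6 pairs (points are arrays, bars mean and SD). The klotho arrays lie above all controls in both groups for 3 pairs, HSPA5/HSPA8, HSP90B1/HSP90AA1 and HSP90B1/HSP90AB1.

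The cell labels were checked on the same arrays. EPCAM, KRT8, KRT18, KRT19, CDH1 and CLDN7 lay at or above percentile 92.4 of all genes by mean value. VIL1 was low at percentile 25.3, the 4 leukocyte markers measured lay at or below 20.9, and of the stromal and endothelial markers COL1A1 was the highest at 55.6. The mean of the 7 epithelial markers ran from 8.74 to 8.90 with KL-FL, from 8.81 to 8.89 with KL1 and from 8.84 to 8.87 in control. KL read 3.19 ± 0.046 with KL-FL, 3.19 ± 0.067 with KL1 and 3.05 ± 0.014 in control (SD, n = 3 each), on probes for the human gene that check a mouse transgene only weakly. These values are as low as the leukocyte markers, whose means ran from 2.74 to 3.53. KL did not pass against control in limma (adjusted p = 0.637 with KL-FL and 0.927 with KL1).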

How the data were processed

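RNA of 9 samples (100 ng each) was read on a whole-transcript array. The authors deposited expression values, taken here as log2, in 1 table of 33297 rows, and Partek 6.6 is named in the submitters' processing notes. How background, normalization and summary were done is not given in these sources. The values, from 1.79 to 12.4, fit a log2 scale, which no source states. The table holds no detection calls, and the number of arrays limits the precision.

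Rows naming 1 gene (19181) were kept, 2055 naming several and 12061 unnamed were not, and the brightest row stood for a gene, which gave 17958 genes. Samples were grouped by title. A model of 3 groups was fitted in R 4.3.3 by limma 3.58.1, with 6 residual degrees of freedom, two-sided tests and Benjamini-Hochberg adjustment over all genes, and was tested on simulated data. Members, lists, pairs and motifs were chosen with earlier results of these data known. Beside the 10 members the text names the 2 genes of smallest p in each list and comparison, the ER comparison genes and the gene most correlated with each of 3 members. Of 73 listed genes 65 were measured. Same-numbered control and KL1 arrays deviated together (correlations of 0.113, 0.322 and 0.186 over genes), so the numbers may pair them. For KL-FL and control these were 0.0974, -0.000404 and -0.00729, and for KL-FL and KL1 0.0121, -0.0955 and -0.0945. The same correlations were not computed for arrays of different numbers, so pairing was not tested. Alternatives were median centring, quantile normalization, a filter on dim genes, array weights, only the arrays compared, the replicate block, the mean of a gene's rows, a variance trend and each array left out.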

Additional observations from a re-analysis of the deposited data

How the results depend on the processing

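In all 3 comparisons 0 of the 10 heat shock genes passed under any of the 8 alternatives, with any of the 9 arrays left out, or without KL-FL replicate 3 and KL1 replicate 2 together, a setting added after seeing the data. With the replicate block the count was also 0, and the block ended the calls of DDIT3 given above and no other call of a named gene. The lowest adjusted p of a member was 0.119, with array weights. The median member difference ran from -0.023 (median centring) to 0.033 (without KL-FL replicate 3) for KL-FL, from 0.0031 to 0.042 for KL1 and from -0.035 to 0.028 between them. With array weights 523 genes were called for KL-FL against 1 without them. Leaving out 1 array moved the difference from control by over 1.5 times, or turned its sign, for 10 of 10 members with KL-FL and 9 of 10, all but BAG3, with KL1, and for 11 of 14 values of other named genes in each comparison. Among the members signs turned in 14 of 180 recomputed values for KL-FL, 8 of 180 for KL1 and 25 of 180 between them, and the cause was not tested.

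For KL-FL minus control, median centring gave HSPA8 -0.0077, HSPH1 -0.0062, HSPD1 -0.030 and HSPA9 -0.016, and quantile normalization gave HSPA8 -0.0035. Array weights gave HSPB1 0.034, HSPD1 -0.0025, HSBP1 0.022 and HSPB8 0.051. Without the 2 arrays that stood apart DNAJB1 was 0.0034, HSPB1 0.037, HSBP1 0.061 and HSPB8 0.016. Leaving out 1 array at a time, HSPA8 ran from -0.0010 to 0.049, DNAJB1 from -0.042 to 0.0034, HSPB1 from -0.079 to 0.037, HSPD1 from -0.0035 to 0.0064, HSPA9 from -0.015 to 0.054, HSBP1 from -0.081 to 0.061 and HSPB8 from -0.18 to 0.016.

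For KL1 minus control, without the 2 arrays DNAJB1 was -0.031, HSPB1 0.042, HSPA9 -0.012, HSPA1A 0.0075, HSF1 0.026 and HSPB8 0.011. Leaving out 1 array at a time, HSPA4 ran from -0.047 to 0.017, HSP90AA1 from -0.0048 to 0.070, DNAJB1 from -0.031 to 0.059, HSPB1 from -0.10 to 0.042, HSPA9 from -0.012 to 0.14, DNAJA1 from -0.070 to 0.025, HSPA1A from -0.073 to 0.0077, HSF1 from -0.088 to 0.026 and HSPB8 from -0.14 to 0.011.

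For KL-FL minus KL1, median centring gave HSP90AB1 -0.027, HSPB1 -0.022 and HSPD1 -0.0027, quantile normalization HSP90AB1 -0.0092 and HSPB1 -0.029, and array weights HSPH1 0.00051 and HSPA9 0.0023. Without the 2 arrays HSPA4 was 0.0035, HSPH1 0.0031, DNAJB1 0.034, HSPB1 -0.0051 and HSPA9 0.066. Leaving out 1 array at a time, HSPA8 ran from -0.031 to 0.015, HSPA4 from -0.047 to 0.0041, HSPH1 from -0.029 to 0.00060, HSP90AA1 from -0.00082 to 0.074, HSP90AB1 from -0.029 to 0.052, DNAJB1 from -0.085 to 0.0056, HSPB1 from -0.082 to 0.084 and HSPA9 from -0.12 to 0.030.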

Other observations

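A second row of the table touches a member and went the other way. Probe set 8096296 is annotated to HSP90AB1 and the related sequence HSP90AB3P together, and it was not used for either gene. It read 8.09, 8.07 and 7.89 with KL-FL, 8.02, 7.97 and 8.01 with KL1, and 8.17, 8.11 and 8.24 in control. All 6 klotho arrays lay below all 3 controls, with differences of -0.16 and -0.17 (SE 0.057 each), while the row naming HSP90AB1 alone differed by 0.044 and 0.042. Of the 17958 genes, a set that leaves this row out, 583 were lower than control without overlap with KL-FL and 779, or 4.34%, with KL1. Both comparisons use the same controls, and the share of rows lower in both was not computed. In limma over all 33297 rows the adjusted p was 0.686 for KL-FL and 0.979 for KL1. Which sequence the row reads was not tested.

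Identical deposited values on several arrays are common in this table. A value shared by at least 2 arrays occurred for 68.5% of genes, by at least 5 for 10.5% and by all 9 for 9 genes. Among the 790 genes with a mean of at least 9, 365 shared a value on at least 2 arrays and 25 on at least 5. Within a group, the SD was 0 for 2.19% of genes with KL-FL, 2.77% with KL1 and 3.10% in control. Among the members, DNAJB1 shared a value on 5 arrays, HSPD1 on 3, and HSPH1 and HSP90AB1 on 2 each. The cause was not tested.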
